A study of Mus musculus with 7 samples.

Results

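The IGHV9 family is a small group of heavy chain variable (V) gene segments, and 4 of its members were used in these lymph nodes: IGHV9-1, IGHV9-2, IGHV9-3 and IGHV9-4. A cell was counted as an IGHV9 cell when it had exactly 1 productive heavy chain (a single-heavy cell) and the first V gene named for that chain, with the allele removed, was a member. Of the 17381 single-heavy cells of 6 libraries, 954 (5.49%) were IGHV9 cells. IGHV9-3 gave 705 of them, IGHV9-1 gave 125, IGHV9-2 gave 80 and IGHV9-4 gave 44. No other IGHV9 name occurred, and no call of an IGHV9 cell named a second gene.

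Cells came from deep cervical (dCLN), superficial cervical (sCLN) and inguinal (iLN) lymph nodes of female mice aged 10 to 11 months, which were either 5xFAD or wild type (WT). 5xFAD mice carry transgenes under the Thy1 promoter, which is active mainly in neurons, and serve as a model of amyloid deposition in Alzheimer's disease. Immune cells were tagged with hashtag antibodies, pooled, and sequenced as single-cell B cell receptor libraries, with 1 library for each node and genotype. The groups were dCLN 5xFAD, sCLN 5xFAD and iLN 5xFAD, set against dCLN WT, sCLN WT and iLN WT, and a separate library mixed all nodes and both genotypes.

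A heavy chain V exon is assembled in each developing B cell by joining 1 V, 1 D and 1 J segment, with random N bases added at the joints, and the joined stretch (the junction) encodes the third complementarity-determining region (CDR3). The first and second such regions, CDR1 and CDR2, are encoded by the V segment itself and form antigen-binding loops together with CDR3 and the loops of a kappa or lambda light chain. A naive B cell carries IgM and IgD with an unmutated V segment, while B cells that respond to antigen can switch to IgG, IgA or IgE and accumulate V mutations. Cervical nodes drain the head, including the meninges and brain, and inguinal nodes drain the hind limb and flank.

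The germline V segments are shown because they define the members and the loops in which they differ. The V segments through the conserved cysteine codon are printed as they stand in the deposited germline alignments, 5′ to 3′, with CDR1 and CDR2 in capitals; each was also found inside the GENCODE M21 transcript of its gene.
IGHV9-1: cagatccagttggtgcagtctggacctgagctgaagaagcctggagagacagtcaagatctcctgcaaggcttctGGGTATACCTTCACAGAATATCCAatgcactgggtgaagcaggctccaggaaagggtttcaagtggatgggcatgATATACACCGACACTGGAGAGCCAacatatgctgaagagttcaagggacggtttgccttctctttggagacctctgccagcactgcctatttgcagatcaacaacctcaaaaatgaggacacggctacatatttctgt
IGHV9-2: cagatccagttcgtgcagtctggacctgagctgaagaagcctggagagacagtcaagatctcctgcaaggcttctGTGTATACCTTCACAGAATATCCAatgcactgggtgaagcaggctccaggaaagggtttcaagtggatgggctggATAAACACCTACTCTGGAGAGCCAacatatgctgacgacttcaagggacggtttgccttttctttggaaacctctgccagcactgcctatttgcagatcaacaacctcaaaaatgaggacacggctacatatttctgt
IGHV9-3: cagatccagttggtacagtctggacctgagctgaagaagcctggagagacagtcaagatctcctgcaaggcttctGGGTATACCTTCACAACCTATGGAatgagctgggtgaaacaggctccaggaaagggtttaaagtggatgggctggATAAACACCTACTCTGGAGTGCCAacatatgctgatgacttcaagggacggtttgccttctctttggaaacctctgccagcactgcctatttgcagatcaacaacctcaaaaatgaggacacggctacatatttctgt
IGHV9-4: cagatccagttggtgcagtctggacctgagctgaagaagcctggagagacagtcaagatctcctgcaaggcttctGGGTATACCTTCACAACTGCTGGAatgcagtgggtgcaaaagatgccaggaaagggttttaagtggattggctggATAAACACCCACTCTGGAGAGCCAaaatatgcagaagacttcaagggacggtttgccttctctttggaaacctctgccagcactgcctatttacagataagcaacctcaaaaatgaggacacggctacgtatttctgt
Over 288 aligned bases, IGHV9-1 and IGHV9-2 differed at 11 positions, the fewest of any pair (96.2% identity). IGHV9-1 and IGHV9-4 differed at 29, the most (89.9%). IGHV9-3, the dominant member, differed from IGHV9-2 at 15 positions, of which 6 lay in CDR1 and 1 in CDR2. It differed from IGHV9-1 at 19 positions, with 5 in CDR1 and 4 in CDR2, and from IGHV9-4 at 23, with 3 in CDR1 and 2 in CDR2. In the mouse genome (GRCm38, mm10; GENCODE M21) all 4 lie on the minus strand: IGHV9-1 at chr12:114093928-114094358, IGHV9-2 at chr12:114109001-114109430, IGHV9-3 at chr12:114140692-114141122 and IGHV9-4 at chr12:114299961-114300389. IGHV9-1, IGHV9-2 and IGHV9-3 are consecutive among the 113 annotated V genes of the locus. Levels of neighbours could differ or be nearer: IGHV9-3 held 4.06% of all single-heavy cells, IGHV9-2 beside it held 0.46%, and IGHV9-1 on the other side of IGHV9-2 held 0.72%.

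The 6 libraries held between 2163 and 4121 barcodes with a heavy chain, of which 2.59% to 5.62% had more than 1 heavy chain and were left out. Pairs of libraries shared between 4 and 35 barcodes, at most 0.852% of the smaller library, and none of the 231 shared barcodes had the same heavy chain junction in both. Gene expression was not used here, so a productive heavy chain was the only mark of a B cell. With 1 library per group, differences between genotypes within a node are given as values with intervals of counting error (exact Clopper-Pearson, 95%; square-and-add for differences) and no test. Tests are exact two-sided sign-flip permutation tests over the 3 nodes or the 6 libraries, which may share animals. Their smallest possible p is 0.25 over 3 nodes and 0.03125 over 6 libraries.

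IGHV9 cells made up a similar part of the repertoire in every node, with the lowest share in sCLN WT. The family held 5.51% of cells in dCLN 5xFAD (215 of 3904), against 6.25% in dCLN WT (211 of 3374). It held 6.03% in sCLN 5xFAD (142 of 2356), against 4.45% in sCLN WT (153 of 3440), and 5.36% in iLN 5xFAD (113 of 2107), against 5.45% in iLN WT (120 of 2200). The sCLN WT library was thus the lowest of the 6, and the other 5 lay within 1 percentage point of each other. Its interval (3.78 to 5.19) overlapped that of iLN 5xFAD (4.44 to 6.41), the next lowest. The difference of 5xFAD minus WT was 1.58 percentage points in sCLN (0.391 to 2.81), -0.747 in dCLN (-1.86 to 0.354) and -0.0915 in iLN (-1.48 to 1.30). Over the 3 nodes it averaged 0.247 ± 1.20 (SD, n = 3), higher in 1 of 3 nodes (exact sign-flip permutation p = 1). Leaving out sCLN turned the mean to -0.419.

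IGHV9-3 carried the pattern in sCLN. It held 3.94% of cells in dCLN 5xFAD, 4.63% in sCLN 5xFAD and 3.75% in iLN 5xFAD, against 4.74% in dCLN WT, 3.23% in sCLN WT and 4.18% in iLN WT. It was the second most used IGHV gene in 5 of the 6 libraries and ranked 7 in sCLN WT, where 93 IGHV genes were seen. The sCLN difference was 1.40 percentage points (0.362 to 2.49), a ratio of 1.43. This did not reach 1.5-fold, a size that 11.9% of the 42 IGHV genes at 1% or more of an sCLN library did reach, and the intervals of its shares overlapped, while 2.38% of those genes had intervals that did not. In dCLN and iLN the ratios of IGHV9-3 were 0.832 and 0.897, while 7.89% of the 38 IGHV genes tested in dCLN (5.26% higher, 2.63% lower in 5xFAD) and 10% of the 40 tested in iLN passed 1.5-fold. Intervals that did not overlap were seen in 2.63% of genes in dCLN and 0% in iLN, and IGHV9-3 was not among them.

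**Figure D1:**
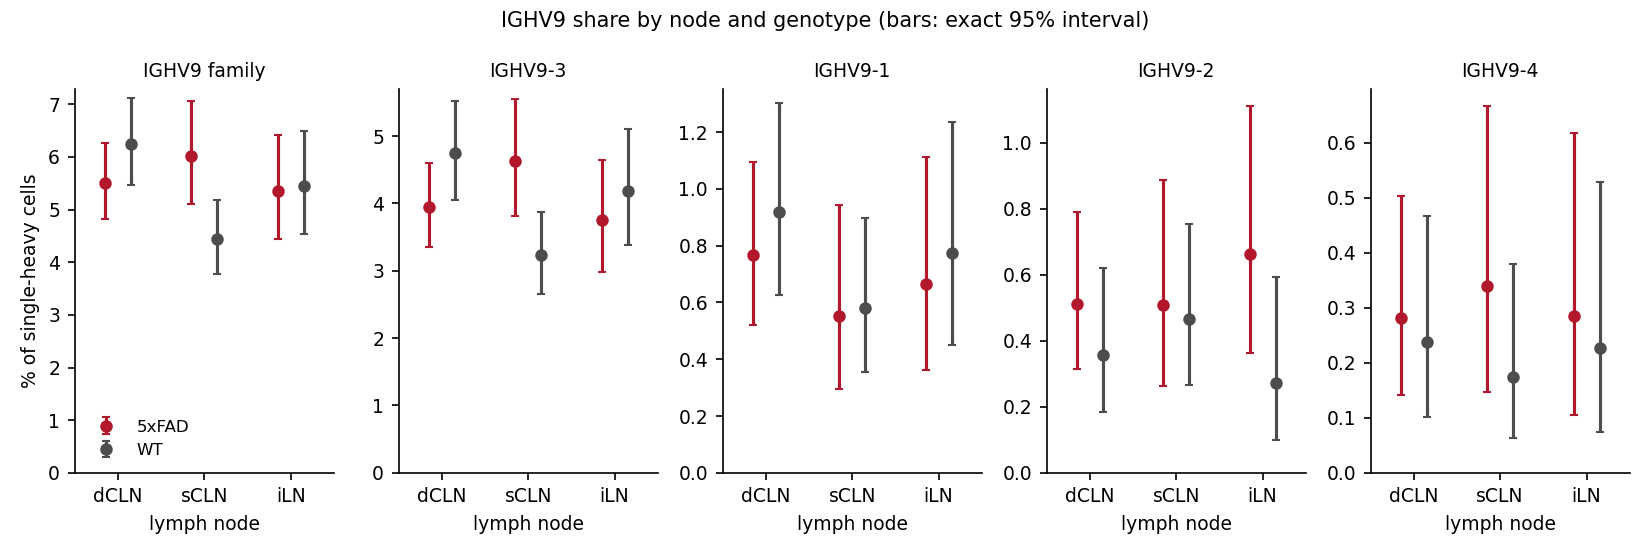
Share of single-heavy cells (%) with the IGHV9 family and with each member, by lymph node, for 5xFAD (red, left of each pair) and WT (grey) libraries. Points are 1 library each and bars are exact 95% intervals; the family and IGHV9-3 are lowest in sCLN WT (4.45% and 3.23%), and vertical scales differ between panels.

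The 3 less used members were each below 1% in every library. IGHV9-1 held 0.768% of cells in dCLN 5xFAD, 0.552% in sCLN 5xFAD and 0.664% in iLN 5xFAD, against 0.919% in dCLN WT, 0.581% in sCLN WT and 0.773% in iLN WT, so it was lower in 5xFAD in 3 of 3 nodes. IGHV9-2 held 0.512%, 0.509% and 0.664% in the 5xFAD libraries of dCLN, sCLN and iLN, against 0.356%, 0.465% and 0.273% in the WT libraries of those nodes. IGHV9-4 held 0.282%, 0.340% and 0.285% in the 5xFAD libraries in that order of nodes, against 0.237%, 0.174% and 0.227% in the WT libraries. Both were higher in 5xFAD in 3 of 3 nodes. These 3 members each gave the smallest p the design allows (exact permutation p = 0.25, Benjamini-Hochberg adjusted p = 0.333 over 4 members). A single sign in all 3 nodes occurred in 25% of the 44 IGHV genes at 1% or more in some library. IGHV9-1 lost its single sign with exactly 1 light chain required, each clone counted once, or identical barcodes merged (exact permutation p = 0.5). IGHV9-2 lost it with the first 2 of these choices (exact permutation p = 0.5), and IGHV9-4 kept it. The counts behind each share were 5 to 31 cells, and the interval of every node's difference for these members included 0.

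Between cervical and inguinal nodes the family share differed by less than its counting error. In 5xFAD mice it was 0.144 percentage points higher in dCLN than in iLN (-1.11 to 1.34) and 0.664 higher in sCLN than in iLN (-0.736 to 2.05). In WT mice the dCLN minus iLN difference was 0.799 (-0.503 to 2.06) and the sCLN minus iLN difference was -1.01 (-2.23 to 0.169). These 4 differences are given without a test.

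Within each library, IGHV9 cells were set against all other single-heavy cells on 12 measures, of which 4 had the same sign in 6 of 6 libraries. These were the lambda light chain share, the N bases per junction, the heavy chain UMIs per cell and the V mutation of unswitched cells. All 4 reached the smallest p of 6 libraries (exact permutation p = 0.03125), and their Benjamini-Hochberg adjusted p over the 12 measures was 0.0938, so none passed 0.05 after adjustment. Over the other choices of cells the adjusted p of these 4 lay between 0.075 and 0.15. The unadjusted p was 0.0625 for the UMIs with all barcodes, with 3 or more UMIs and with exactly 1 light chain required, and for the N bases with exactly 1 light chain required.

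Lambda light chains, a minor class in mice, were carried by 6.06% of IGHV9 cells in dCLN 5xFAD, 8.66% in sCLN 5xFAD and 8.41% in iLN 5xFAD, and by 8.11% in dCLN WT, 9.29% in sCLN WT and 12.6% in iLN WT. In the other IGHV cells of the same 6 libraries the share lay between 3.92% and 4.92%, below every IGHV9 value. The means were 8.86% ± 2.14 in IGHV9 cells and 4.37% ± 0.328 in other cells (SD, n = 6 libraries). The members are given without a test. IGHV9-3 had a lambda chain in 65 of 650 cells with exactly 1 light chain (10.0%, 7.80 to 12.6) and IGHV9-4 in 6 of 41 (14.6%, 5.57 to 29.2). IGHV9-1 had one in 3 of 110 (2.73%, 0.566 to 7.76) and IGHV9-2 in 0 of 67, which allows a share of up to 4.48%. Among the 54 IGHV genes with 100 or more unswitched cells, IGHV9-3 ranked 3 in lambda share, and the range over genes was 0% to 23.4%, the highest being IGHV4-1.

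Junctions of IGHV9 cells held 7.67 ± 0.266 N bases on average, against 7.21 ± 0.0682 in other cells (SD, n = 6 libraries). The difference was 0.0148 bases in dCLN 5xFAD and 0.364 to 0.781 in the other 5 libraries. IGHV9-3 had 7.86 N bases per junction, the fifth highest of the 54 IGHV genes, while IGHV9-1 had 6.94 and ranked 37. Junction length itself was 14.2 ± 0.191 codons in IGHV9 cells and 14.1 ± 0.0553 in other cells, longer in 5 of 6 libraries (exact permutation p = 0.219, adjusted p = 0.438). The J segment shares differed by less than the spread between libraries. IGHJ1 was in 18.4% of IGHV9 cells and 18.9% of others, IGHJ2 in 33.0% and 33.5%, IGHJ3 in 22.3% and 22.6%, and IGHJ4 in 26.3% and 25.0%, as means of 6 libraries (exact permutation p from 0.5 to 0.844). Of the D families, IGHD1 was in 38.9% of the 954 IGHV9 cells and 38.2% of others and IGHD2 in 35.6% and 34.1%. IGHD3 was in 8.28% and 6.58%, IGHD4 in 8.60% and 9.96%, and no D segment was called in 7.34% and 9.87%. The D families were not tested.

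The median number of heavy chain UMIs, a count of captured transcripts, was 16 in IGHV9 cells of dCLN 5xFAD, against 12 in the other cells of that library. In the remaining libraries it was 11 to 14 in IGHV9 cells and 9 to 12 in other cells, higher by 1 or 2 in each. IGHV9-1 and IGHV9-3 both had a median of 14, in a range of 6 to 19 over the 54 genes. IgD was called in 17.9% ± 4.19 of unswitched IGHV9 cells and in 21.8% ± 3.95 of other unswitched cells, lower in 5 of 6 libraries (exact permutation p = 0.0625, adjusted p = 0.15). The IgD share itself varied with UMIs. With 1 to 5 UMIs it was 54.0% of IGHV9 cells (47 of 87) and 53.5% of others, with 6 to 10 UMIs it was 26.2% (58 of 221) and 27.2%, and with 11 to 20 UMIs it was 11.9% (53 of 445) and 11.3%. From 21 UMIs it was 4.35% (7 of 161) and 2.78%. Within these ranges of UMIs the shares of IGHV9 and other cells differed by less than the counting interval of the IGHV9 value.

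Unswitched IGHV9 cells were close to germline. Their mean V difference from germline was 0.00654% ± 0.00502 of bases, against 0.0236% ± 0.00491 in other unswitched cells (SD, n = 6 libraries), lower in 6 of 6 libraries. In sCLN WT none of 144 unswitched IGHV9 cells carried a difference, which allows a share of up to 2.08%, and over all libraries 13 of 914 did (1.42%), against 637 of 15701 other cells (4.06%). The most mutated of the 13 was an IgM IGHV9-3 cell of dCLN WT with 2.05% of bases differing, and the other 12 lay at or below 0.680%. IGHV1-69 differed from its assigned germline in 65.3% of its unswitched cells, and the median over the 54 IGHV genes was 1.94%, with IGHV9-3 at 1.49% and IGHV9-1 at 0.82%. Without IGHV1-69, an alternative chosen after seeing the data, the other cells averaged 0.0188% and IGHV9 cells were lower in 6 of 6 libraries (exact permutation p = 0.03125, adjusted p = 0.0938). Leaving out all 13 IGHV genes in which over 5% of unswitched cells differed removes the genes with the highest values and so lowers the mean of the other cells by construction. That mean was then 0.0139%, and IGHV9 cells were lower in 5 of 6 libraries (exact permutation p = 0.0625, adjusted p = 0.15).

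**Figure D2:**
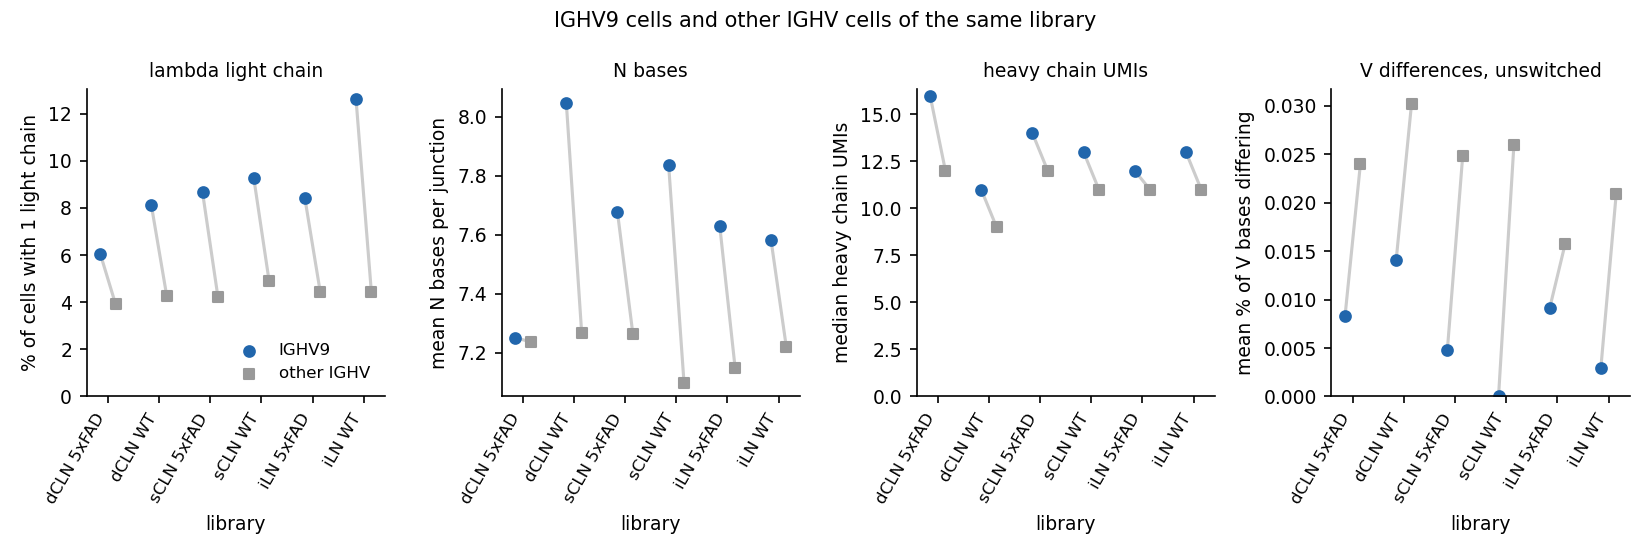
IGHV9 cells (blue circles, left) and other IGHV cells (grey squares) of the same library for lambda share (% of cells with 1 light chain), mean N bases per junction, median heavy chain UMIs and mean % of V bases that differ from germline in unswitched cells. Each joined pair is 1 library; all 6 pairs run the same way in each panel, the N base axis does not start at 0, and the smallest gap is that of N bases in dCLN 5xFAD (0.0148).

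Among the members, IGHV9-1 had the shortest junctions and IGHV9-3 the longest. IGHV9-1 averaged 12.8 codons in dCLN 5xFAD, 14.7 in sCLN 5xFAD and 13.9 in iLN 5xFAD, and 13.7 in dCLN WT, 12.5 in sCLN WT and 11.8 in iLN WT. It was shorter than the other 3 members together in 5 of 6 libraries, with sCLN 5xFAD (13 cells) the exception. The mean difference was -1.19 ± 1.30 codons (SD, n = 6; exact permutation p = 0.0938, adjusted p = 0.5 over 16 comparisons). IGHV9-3 was longer than the other members by 0.859 ± 0.529 codons, again in 5 of 6 libraries (exact permutation p = 0.0625, adjusted p = 0.5). IGHV9-1 also had the lowest IgD share of unswitched cells, 10.7%, against 19.0% in the other members, lower in 5 of 6 libraries (exact permutation p = 0.0625, adjusted p = 0.5). No member comparison of junction length, IGHJ4, IgD or switching had an unadjusted p under 0.05.

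The first 3 codons of the junction showed the end of each V segment. IGHV9-2 and IGHV9-3 junctions began with TGTGCAAGA in 85.0% and 79.4% of cells, IGHV9-4 junctions with TGTGCGAGA in 79.5%, and IGHV9-1 junctions with TGTGTAAGA in 44.8%. IGHV9-1 thus kept its commonest start least often, in 56 of 125 cells.

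**Figure D3:**
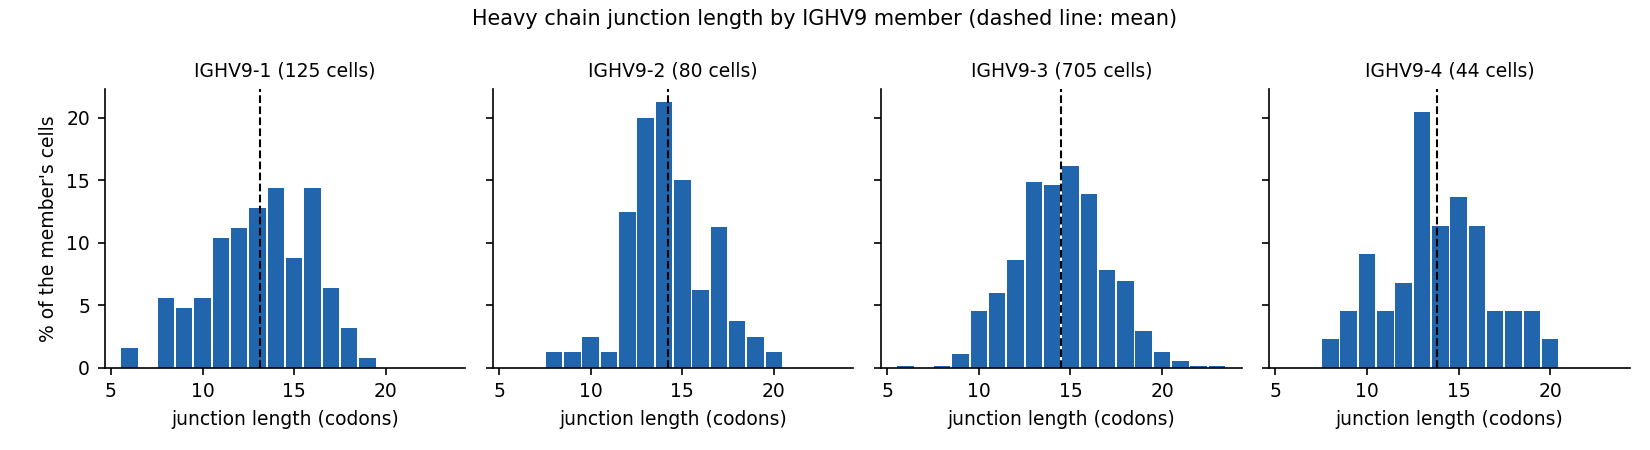
Distribution of heavy chain junction length (codons) in IGHV9-1, IGHV9-2, IGHV9-3 and IGHV9-4, as % of the cells of each member over the 6 libraries; the dashed line is the mean. The means are 13.1 codons for IGHV9-1, 14.2 for IGHV9-2, 14.5 for IGHV9-3 and 13.8 for IGHV9-4.

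Light chain V genes paired with IGHV9 were compared with those of other cells, and a gene was called when its share differed with 1 sign in 6 of 6 libraries. Of 42 light chain V genes at 1% or more of cells, 2 were called higher (4.76%) and 3 were called lower (7.14%). IGLV1, the main mouse lambda V gene, was in 3.54% to 8.11% of IGHV9 cells per library and in 3.29% to 3.92% of other cells, with the largest gap in iLN WT. IGKV9-120, a kappa V gene, was in 1.57% to 3.60% of IGHV9 cells and 0.985% to 2.06% of others. Neither was called when each clone was counted once. IGKV4-57 was in 2 of 868 IGHV9 cells (0.230%), against 1.32% of other cells, and was absent from IGHV9 cells in 5 libraries. IGKV16-104 (2 cells, against 1.13% of others) and IGKV4-68 (3 cells, against 1.09%) were scarce too. These 3 calls rest on few IGHV9 cells, and they were kept under each of the 6 other choices of cells.

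IGKV1-117 and IGKV1-135 were the most frequent partners, each in 44 of 868 IGHV9 cells (5.07%), against 3.52% and 2.71% of other cells. IGKV1-117 was higher than in other cells in 5 of 6 libraries, by up to 4.35 percentage points in iLN 5xFAD, and 3.36 points lower in iLN WT. IGKV1-135 was higher in 4 of 6 libraries. Of the other frequent partners, IGKV10-96 was in 4.49% of IGHV9 cells and 5.53% of others, IGKV12-46 in 3.57% and 2.58%, and IGKV6-15 in 3.11% and 3.45%. The leading partners of each member are given without a test, and some were shared between members. IGHV9-1 was most often with IGKV10-96 and IGKV6-15 (7 of 110 cells each), IGHV9-2 with IGKV10-96 (7 of 67) and IGKV14-111 (4), IGHV9-3 with IGKV1-117 (42 of 650) and IGKV1-135 (35), and IGHV9-4 with IGLV1 (6 of 41), IGKV1-110 (3) and IGKV6-15 (3).

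**Figure D4:**
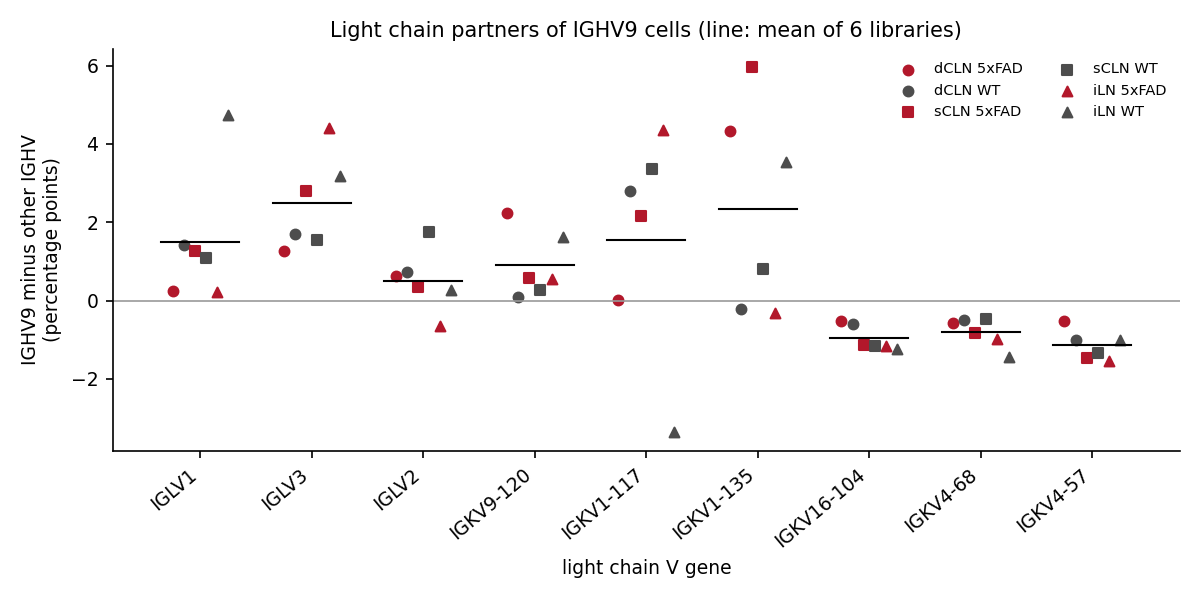
Share of light chain V genes in IGHV9 cells minus their share in other IGHV cells (percentage points), 1 point per library (red 5xFAD, grey WT; circles dCLN, squares sCLN, triangles iLN) and a line at the mean of 6 libraries. IGLV1, IGLV3 and IGKV9-120 lie above 0 in every library, IGKV16-104, IGKV4-68 and IGKV4-57 lie below, IGKV1-117 lies below 0 in iLN WT alone, and IGKV1-135 lies above 0 in 4 of 6 libraries.

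IGLV3, a rare lambda V gene below the 1% limit of the tested genes, had the largest mean difference of the lambda genes and was singled out after its values were seen. It was in 3 of 140 IGHV9-3 cells in dCLN 5xFAD, 4 of 101 in sCLN 5xFAD and 5 of 74 in iLN 5xFAD, and in 4 of 142 in dCLN WT, 3 of 104 in sCLN WT and 4 of 89 in iLN WT. Each library thus gave 3 to 5 such cells. Together they were 23 of 650 IGHV9-3 cells (3.54%, 2.26 to 5.26), against 59 of 14895 cells of other IGHV genes (0.396%, 0.302 to 0.511). No IGHV9-1, IGHV9-2 or IGHV9-4 cell had IGLV3, which allows shares of up to 2.73%, 4.48% and 7.32%. IGHV9-3 was in 28.0% of all 82 IGLV3 cells and in 4.12% of all cells with 1 light chain. It ranked first in IGLV3 share among the 65 IGHV genes with 50 or more such cells, 46 of which had no IGLV3 cell, and IGHV5-6 followed with 7 of 212 (3.30%). Leaving IGLV3 out brought the lambda share of IGHV9 cells to 6.16% ± 1.95, against 3.99% ± 0.240 in other cells, higher in 5 of 6 libraries (exact permutation p = 0.0625, adjusted p = 0.15).

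The IGLV3 cells did not belong to 1 clone. The 23 cells had 23 different heavy junctions of 9 to 17 codons, with 1 cell on IGHJ1, 8 on IGHJ2, 6 on IGHJ3 and 8 on IGHJ4, and all were unswitched with an unmutated heavy V segment. The sequences of their light V segments were not compared. Of the 23 cells, 22 carried this 45-base light junction (IGLV3 joined to IGLJ2), shown because it was shared by cells with different heavy junctions:
IGLV3 junction: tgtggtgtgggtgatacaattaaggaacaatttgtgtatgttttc
The same junction was in 56 of the 59 IGLV3 cells of other IGHV genes (94.9%), so it was not particular to IGHV9-3 cells.

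Class switching was rare in IGHV9 cells and lay in WT libraries for the most part. Of 948 IGHV9 cells with a constant region call, 749 were IgM, 165 IgD and 34 switched: 13 IgG2b, 8 IgG1, 8 IgG2c, 5 IgA and no IgG3. In 5xFAD libraries 6 of 211 cells were switched in dCLN (2.84%), 0 of 142 in sCLN, which allows a share of up to 2.11%, and 1 of 113 in iLN (0.885%). In WT libraries 15 of 209 were switched in dCLN (7.18%), 9 of 153 in sCLN (5.88%) and 3 of 120 in iLN (2.5%). The IGHV9 share was lower in 5xFAD in each node, with a 5xFAD minus WT difference of -4.33 percentage points in dCLN (-9.07 to 0.156), -5.88 in sCLN (-10.9 to -1.81) and -1.62 in iLN (-6.33 to 2.80).

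The other IGHV cells, taken as 1 group, had smaller differences. They were switched in 4.19%, 3.09% and 1.22% of cells in the 5xFAD libraries of dCLN, sCLN and iLN, against 3.90%, 4.15% and 1.37% in the WT libraries of those nodes. IGHV9 cells thus had a lower switched share than other cells in all 3 5xFAD libraries and a higher one in all 3 WT libraries. The 5xFAD minus WT difference averaged -3.94 ± 2.16 percentage points in IGHV9 cells and, after subtraction of the difference in other cells, -3.64 ± 1.88 (SD, n = 3 nodes; exact permutation p = 0.25 for each, the smallest possible). This comparison by genotype was added after seeing the data. Among the 25 IGHV genes with 30 or more cells in each library, a lower switched share in 5xFAD in 3 of 3 nodes was seen in 8% of genes, IGHV9-3 and IGHV1-26, and IGHV9-3 had the most negative mean difference (-5.02), followed by IGHV1-50 (-4.35). Differences of that size occurred the other way too: IGHV1-53 had a mean difference of 5.36 points and IGHV8-12 one of 4.75. A higher share in 5xFAD in 3 of 3 nodes was seen in IGHV1-9 and IGHV1-39, again 8% of genes. The 15 switched cells of dCLN WT came from 8 clones. With each clone represented by 1 of its cells, the dCLN shares were 2.93% in 5xFAD (6 of 205) and 3.87% in WT (7 of 181), while those of sCLN were 0 of 135 in 5xFAD, which allows up to 2.22%, and 9 of 145 in WT (6.21%). The libraries do not separate animals here, so genotype and the animals pooled into each library cannot be told apart.

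**Figure D5:**
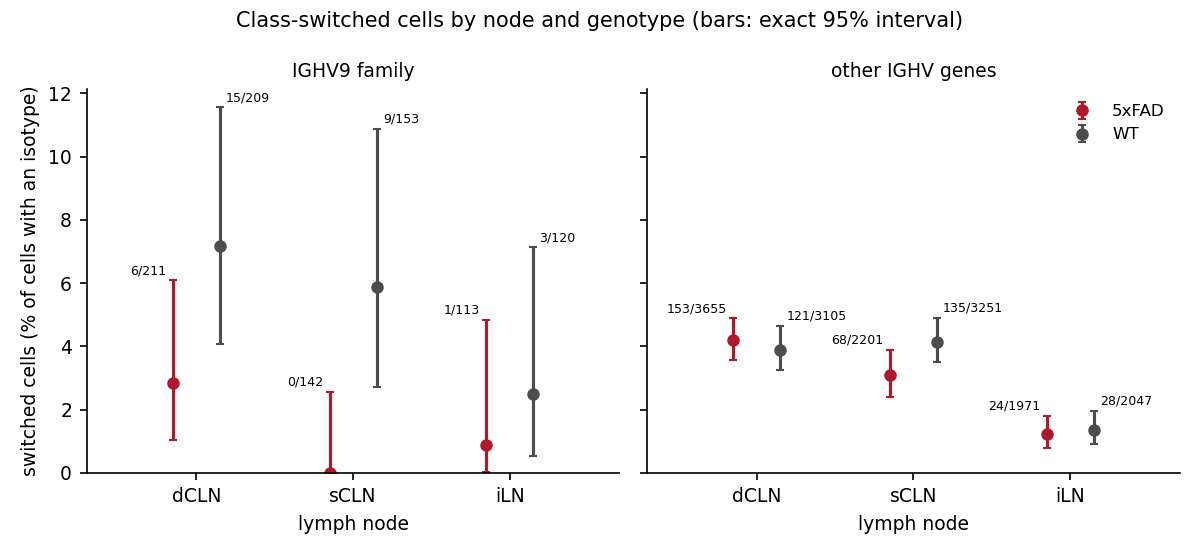
Switched cells (% of cells with an isotype call) among IGHV9 cells and among other IGHV cells, by node, for 5xFAD (red, left of each pair) and WT (grey) libraries. Points are 1 library each, bars are exact 95% intervals and fractions give switched over all cells; IGHV9 values are lower in 5xFAD in all 3 nodes (0 of 142, against 9 of 153, in sCLN).

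IGHV9-3 supplied 29 of the 34 switched cells (29 of 701 cells, 4.14%), IGHV9-1 and IGHV9-2 gave 2 each and IGHV9-4 gave 1. In dCLN 5xFAD, 5 of 151 IGHV9-3 cells were switched, against 14 of 159 in dCLN WT. In sCLN none of 109 were switched in 5xFAD (a share of at most 2.75%), against 7 of 111 in WT. In iLN none of 79 were switched in 5xFAD (at most 3.80%), against 3 of 92 in WT. The 29 switched IGHV9-3 cells had a median V mutation of 1.71%, and 6 of them were unmutated. The 3 most mutated switched IGHV9 cells were an IGHV9-2 IgG1 cell of sCLN WT with IGHJ2 and IGKV14-111 (5.44%), an IGHV9-3 IgG1 cell of sCLN WT with IGHJ1 and IGKV6-23 (4.83%), and an IGHV9-3 IgA cell of dCLN 5xFAD with IGHJ4 and IGKV8-24 (3.74%), which an IGHV9-1 IgG1 cell of sCLN WT with IGLV1 equalled (3.74%).

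A group of switched IGHV9-3 cells shared a light chain gene and a junction pattern. Of 26 switched IGHV9-3 cells with exactly 1 light chain, 8 (30.8%, 14.3 to 51.8) had IGKV1-117, against 34 of 620 unswitched IGHV9-3 cells (5.48%, 3.83 to 7.58) and 13 of 468 switched cells of other IGHV genes (2.78%, 1.49 to 4.70). The 8 cells came from 6 of 21 clones. None of the 5 such cells of 5xFAD libraries had IGKV1-117, against 8 of 21 in WT libraries, 5 of them in dCLN and 3 in sCLN; 0 of 5 allows a share of up to 60%. This set was noticed in the data and is given without a test. The 8 heavy junctions are printed for comparison, with the sixth codon in capitals.
dCLN WT, IgG2b, IGHJ4: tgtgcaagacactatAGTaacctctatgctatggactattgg
dCLN WT, IgG2b, IGHJ3: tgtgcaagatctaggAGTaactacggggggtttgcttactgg
dCLN WT, IgG2b, IGHJ4: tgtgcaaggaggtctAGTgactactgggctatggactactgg
dCLN WT, IgG2b, IGHJ4: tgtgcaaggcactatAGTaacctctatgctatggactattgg
dCLN WT, IgG2c, IGHJ4: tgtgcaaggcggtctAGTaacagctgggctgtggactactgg
sCLN WT, IgG1, IGHJ4: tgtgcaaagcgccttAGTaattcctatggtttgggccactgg
sCLN WT, IgG2c, IGHJ3: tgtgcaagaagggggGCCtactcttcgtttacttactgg
sCLN WT, IgG2c, IGHJ4: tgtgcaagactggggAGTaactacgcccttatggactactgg
In 7 of the 8 the junction was 42 bases (14 codons) long with AGT as its sixth codon, while the flanking bases and the J segment (IGHJ4 in 6 cells, IGHJ3 in 2) varied. That length and codon together were found in 10 of all 29 switched IGHV9-3 cells (34.5%, 17.9 to 54.3) and in 8 of 672 unswitched IGHV9-3 cells (1.19%, 0.515 to 2.33). Other IGHV cells had them in 2 of 529 switched cells (0.378%) and 131 of 15701 unswitched cells (0.834%). None of the 34 unswitched IGHV9-3 cells with IGKV1-117 had them, which allows a share of up to 8.82%. The length and codon were read from the 8 printed cells. Of the 10 switched IGHV9-3 cells that had both, 7 are printed cells. All 5 cells of the largest clone, described below, are among the 10. The contrast with other cells is thus not an independent check of the pattern. All 8 light junctions were 33 bases long, joined to IGKJ1 in 5 cells and IGKJ2 in 3, and the 8 heavy V segments carried 0% to 3.08% mutation. In printed order the 8 cells had 2, 2, 32, 5, 44, 16, 6 and 5 heavy chain UMIs, against a median of 14 over all IGHV9-3 cells. Of the 8, 2 are in the largest clone, in which 1 heavy junction occurred with several light chain V genes. Whether the heavy and light chains of cells with few UMIs belong together was not tested.

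Clones were groups of cells of 1 library with the same V gene, J gene and junction length whose junctions differed at no more than 0.15 of their bases from another of the group. IGHV9 cells formed 58 clones of 2 or more cells that held 125 cells (13.1%), and 51 of them were pairs. The share in clones was 5.12% in dCLN 5xFAD, 9.86% in sCLN 5xFAD and 10.6% in iLN 5xFAD, and 23.7% in dCLN WT, 9.80% in sCLN WT and 19.2% in iLN WT. It was 8.46% to 18.7% in other cells, and IGHV9 cells were above other cells in 3 of 6 libraries (exact permutation p = 0.938). Among 28 clones of a single junction with 2 or more typed light chains, 28 had 1 light chain V gene throughout. Of 24 clones that joined several similar junctions, only 3 did.

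The largest IGHV9 clone had 5 switched IGHV9-3 IGHJ4 cells in dCLN WT, 4 IgG2b and 1 IgG2c, with 1.71% to 3.09% V mutation. Its junctions are printed with bases that differ from the commonest one in capitals.
IgG2b, 1 cell: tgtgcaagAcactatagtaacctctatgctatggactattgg
IgG2b, 3 cells: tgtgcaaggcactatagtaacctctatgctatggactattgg
IgG2c, 1 cell: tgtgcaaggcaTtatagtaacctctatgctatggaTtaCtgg
Of its 4 cells with exactly 1 light chain, 2 had IGKV1-117, and IGKV6-17 and IGKV6-32 had 1 each. The 3 cells with its commonest junction each had a different light chain V gene (IGKV1-117, IGKV6-17 and IGKV6-32). Cells of this clone had a median of 3 heavy chain UMIs. A second switched clone of dCLN WT had 2 IgG1 cells and 1 IgA cell on IGHJ1, all at 3.06% mutation, and the 2 typed light chains were both IGKV8-24. Another had an IgG2b and an IgG2c cell, both with IGKV1-117. Of the remaining clones of 3 cells, 1 in dCLN WT had an identical 18-codon junction in 2 IgM cells and 1 IgD cell on IGHJ2, with IGKV12-46 in both typed cells, and the others had several junctions and were unmutated and unswitched.

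A single identical heavy junction occurred in more than 1 library, an IGHV9-3 IGHJ1 junction of 15 codons in iLN 5xFAD and iLN WT, with IGKV4-53 in one and IGLV1 in the other. Under the looser distance rule, 58 groups of similar junctions spanned libraries, of which 6 had the same light chain V, J and junction length in more than 1 library and 1 had more than 1 switched cell. That group held 6 IGHV9-3 IGHJ1 cells with a 17-codon junction from 5 libraries, and its 3 switched cells are printed because they came from different libraries. Capitals mark bases that differ from the dCLN 5xFAD junction.
dCLN 5xFAD, IgG2c: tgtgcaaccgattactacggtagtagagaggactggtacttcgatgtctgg
dCLN WT, IgG2c: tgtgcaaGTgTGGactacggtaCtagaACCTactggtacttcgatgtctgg
iLN WT, IgG2b: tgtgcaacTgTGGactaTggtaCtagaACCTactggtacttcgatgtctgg
The dCLN 5xFAD cell was unmutated and paired with IGKV9-124. The WT cells carried 3.41% V mutation in dCLN and 1.71% in iLN. The iLN WT cell paired with IGKV14-111 and the dCLN WT cell had no single light chain call, so whether their light chains matched was not tested.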

How the data were processed

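Each of the 7 single-cell B cell receptor libraries has a deposited table of assembled contigs, with 1 contig in each row. UMI and read numbers are raw counts per contig, and V identity is the fraction of aligned V bases equal to germline, per the file headers; junction and N lengths are in bases. Cell Ranger 6.0.1, Seurat 4.1.0 and mm10 are named in the submitters' processing notes. The germline set was not given in the sources used here.

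From these tables, barcodes with exactly 1 productive heavy chain were kept, and those with more were left out; no doublet caller was run. Switched cells were those called neither IgM nor IgD. V mutation was 100 minus percent identity. Light chain values used cells with exactly 1 light chain. The mixed library entered no comparison. Shares carry exact 95% intervals, and a share of 0 is given with the limit that 3 counts allow. Both cover counting error only, and cells of 1 clone are not independent. Sign-flip tests were exact and two-sided over libraries or nodes, with Benjamini-Hochberg adjustment. The sign-flip test was checked on fixed inputs with a known answer. The mutation count, the clone rule and the light chain calls were checked on simulated data. Nothing says that libraries came from separate animals, so p-values measure only the spread between libraries. Alternatives changed the choice of cells, the clone rule, the fold and the limit on low shares, or left out 1 library or node.

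The members and lists were chosen with earlier results of these data known. By rule, the text names the 4 members, all IGHJ genes and isotypes, the 6 most frequent light chain V genes and those called (up to 5 each way), the 2 leading partners of each member, the largest clones and the 3 most mutated switched cells. IGLV3, the IGKV1-117 set and the other IGHV genes were named after their values were seen. Python 3.11.15, numpy 2.4.6, pandas 2.3.3, scipy 1.17.1 and matplotlib 3.10.9 were used.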

Additional observations from a re-analysis of the deposited data

Results flagged for a closer look

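The IGHV9 share differed in sign between nodes. The 5xFAD minus WT difference was 1.58 percentage points in sCLN and -0.747 in dCLN, with intervals of counting error of 0.391 to 2.81 in sCLN and -1.86 to 0.354 in dCLN. The difference between the nodes was not tested, since each node has 1 library per genotype.

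The switched share of IGHV9 cells minus that of other IGHV cells had opposite signs in the genotypes. It averaged -1.59 percentage points in the 5xFAD libraries (-3.09 to -0.333) and 2.05 in the WT libraries (1.13 to 3.28), so all 3 libraries of each genotype lay on 1 side of 0. This was seen first and then computed on the same libraries, and the paired comparison by node cannot go below p = 0.25 (exact sign-flip permutation test).

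The mixed library, which pooled the nodes of 5xFAD and WT mice, was compared with no other. IGHV9 held 5.67% of its single-heavy cells (141 of 2488), within the range of the 6 compared libraries. Of its IGHV9 cells with an isotype 5 of 139 were switched (3.60%), against 7.13% of its other IGHV cells.

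Barcodes with more than 1 heavy chain were left out of every share above. Of the 765 such barcodes in the 6 libraries, 86 held an IGHV9 chain (11.2%, 9.09 to 13.7), which counts either of at least 2 chains per barcode and is not on the scale of a share of single-heavy cells.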

How the results depend on the processing

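Of 436 values under alternatives for 46 results, 245 with other choices and 159 with a library or node left out counted as unchanged. For tested results this meant the same direction and the same side of the 0.05 threshold. For values given with an interval it meant a value inside the main interval, and for counts a change of at most 1.5-fold. In the exact sign-flip permutation tests by genotype, the smallest possible p was 0.25 over 3 nodes and 0.5 with a node left out. For IGHV9 against other cells, no main adjusted p was under 0.05, and the smallest possible p with a library left out was 0.0625. These genotype and leave-one-out values could not cross 0.05, so for them unchanged means the same direction only. A value inside its interval could still change sign: the iLN difference in family share became 0.197 with each clone counted once. In percentage points, the IGHV9-3 share became -0.0540 with all barcodes and -0.0167 with 1 light chain required; IGHJ2 became 0.292 with each clone counted once; the share in clones became -0.756 at distance 0.10, -1.37 with identical junctions and -0.697 with the same light chain required. Leaving out 1 node gave -0.419 to 0.744 for the family share and -0.615 to 0.484 for IGHV9-3, both turned by sCLN. Leaving out 1 library gave -0.381 to 0.893 for switching (turned without dCLN WT, and at -0.0705 without sCLN WT), -1.65 to 1.81 for clones (turned without iLN WT, and at -0.507 without dCLN WT), -1.42 to 0.647 for IGHJ2, -1.90 to 0.602 for IGHJ3 (0.536 without iLN 5xFAD) and -0.260 to 2.73 for IGHJ4, these turned without sCLN WT. Member comparisons with an unadjusted p under 0.05 numbered 2 with all barcodes and 1 each with 1 light chain required, each clone counted once and identical barcodes merged. Light chain genes called higher numbered 0 with each clone counted once (IGLV1 1.53, IGKV9-120 0.979) and 1 with identical barcodes merged (IGKV9-120 0.850). Those called lower numbered 4 to 7 when 1 library was left out, with 5 without sCLN 5xFAD and 7 without iLN WT. IGHV genes past 2-fold numbered 0 in dCLN, 1 in sCLN and 0 in iLN, and with genes from 0.5% those past 1.5-fold numbered 5 in dCLN and 11 in iLN. By the rules used, a single sign is met more easily in fewer libraries, 2-fold is met less easily than 1.5-fold, and a lower limit admits more genes. The cause of the changes was otherwise not tested. The switched share by genotype stayed between -5.11 and -2.97 when a node was left out; it, the IGLV3, IGHV1-69 and IGKV1-117 values and their alternatives were chosen after seeing the data. Pairing by replicate was not possible because the labels give every group 1 library, with no replicate numbers to block on. Instead, libraries were paired by node, or IGHV9 with other cells within a library. Counts of 5 to 31 cells limit each share of IGHV9-1, IGHV9-2 and IGHV9-4.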
